A study of Penicillium oxalicum with 12 samples.

Results

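The comparison described here sets a Penicillium oxalicum strain with a changed histone H2B against the wild type, over all genes with a measurable transcript level. In the strain H2BK131A lysine 131 of H2B is replaced by alanine, and the wild type (WT) is the strain 114-2. A gene was included where its FPKM (fragments per kilobase, relative to all mapped fragments) was at least 1 in at least 3 of 12 libraries, which held for 9431 of 9931 genes. Each strain had 3 libraries of mycelial RNA, as had the 2 strains used for context, H2BK123A (lysine 123 of H2B replaced by alanine) and DlaeA (laeA deleted). All 4 strains were grown alike, for 22 h at 30 °C in a pre-culture with 2% glucose and for 24 h more after the washed mycelia were moved to Mandel's medium, again with 2% glucose. The sources used here do not say how many independent transformants stand behind H2BK131A, whether an unchanged copy of H2B remains, or whether the 3 libraries came from separate cultures.

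H2B is one of the core histones around which DNA is wound in the nucleosome. Lysines of its tail and its C-terminal end carry acetyl and ubiquitin marks. In budding yeast the enzymes Rad6 and Bre1 attach ubiquitin near that end, and the COMPASS complex needs this mark to methylate histone H3. P. oxalicum is a filamentous fungus known for secreting enzymes that break down plant cell walls and starch, and LaeA is a regulator of secondary metabolite genes and development in filamentous fungi. Gene names below are those of the descriptions in the deposited table and are not evidence of function in this species.

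The replacement of a lysine cannot be seen in transcript levels, so the label of the mutant was not checked by its H2B gene. That gene, PDE_01489, was at 1055, 1194 and 1073 FPKM in WT 1, 2 and 3, and at 1100, 1059 and 1117 in H2BK131A, with the strains overlapping (log2 difference -0.02 ± 0.13 SE, limma adjusted p = 0.906). WT varied more than the mutant. The median SD per gene was 0.223 on the log2 scale in WT and 0.124 in H2BK131A, and WT 1 and WT 2 differed by at least 2-fold in 895 of the 9431 genes, WT 2 and WT 3 in 467, and WT 1 and WT 3 in 359. In H2BK131A such pairs differed in 45 to 99 genes. By these counts WT 2 lay furthest from the other WT libraries, though WT 1 and WT 3 also differed in more genes than any pair of the mutant. Counts are given with and without WT 2. The 10 highest genes held 8.41% to 8.59% of the summed FPKM in H2BK131A libraries and 11.0% to 13.5% in WT, and 157 to 169 genes were listed at 0 against 255 to 284 in WT.

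Transcript levels of most genes differed between H2BK131A and WT. Genes for nitrate use, a locus with an oleate hydratase and a lactate dehydrogenase, small heat shock proteins, the cytosolic ribosome and the mitochondrial respiratory chain were higher in the mutant. A run of loci that holds scytalone dehydratase, a pigment enzyme by its name, was lower, as were most amylase genes. Of the 9431 genes 6675 were called at an adjusted p under 0.05, which is 70.8%, with 3831 higher (40.6%) and 2844 lower (30.2%). At least 2-fold changes were called for 3163 genes (33.5%), 1875 higher (19.9%) and 1288 lower (13.7%). Without WT 2 there were 6825 calls (72.4%), 4066 higher (43.1%) and 2759 lower (29.3%), and 6345 genes (67.3%) were called in the same direction with and without that library. The fit pools the spread of all 4 strains although WT varied more than the mutants, and on simulated data it made more false calls than its threshold allows. Of the simulated calls 41.7% were false where each strain kept its own spread, and 9.15% with the pooled spread. Only 200 genes were changed there, far fewer than were called here, so these shares cannot be read as those of the calls above. Fitted from WT and H2BK131A by themselves, 6005 genes were called, 3491 higher and 2514 lower, and 5982 of the 6675 calls kept their direction. For 6653 genes (70.5%) every mutant library lay on the same side of all WT libraries, and 6358 (67.4%) were both called and not overlapping. The median log2 difference of all genes was 0.13, and it moved to -0.03 with median ratio scaling and to 0.00 with quantile scaling of the libraries. With so large a share of genes called, a count of called members says little by itself, and the counts below are to be read against 40.6% higher and 30.2% lower.

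**Figure D1:**
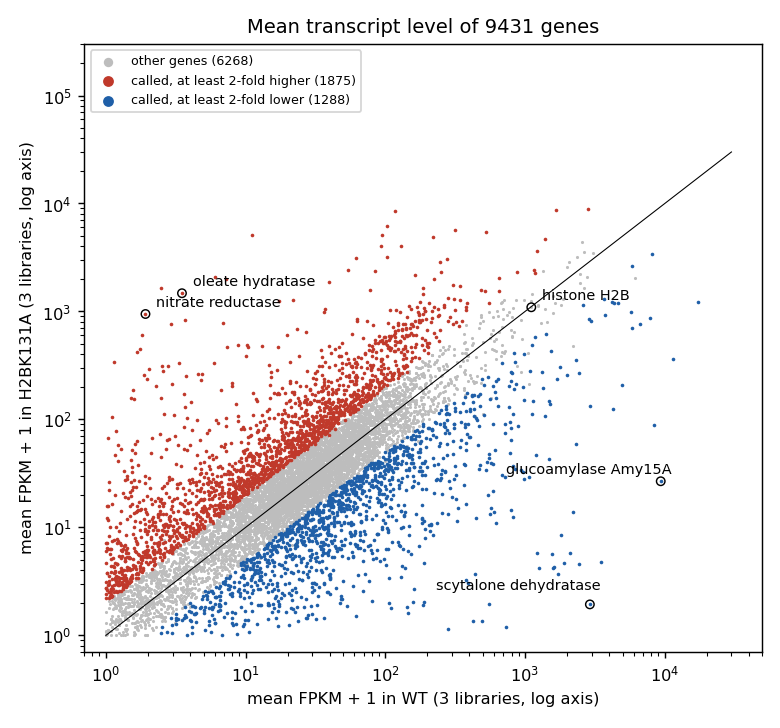
Mean FPKM + 1 of each of 9431 genes in WT (horizontal axis, log scale) and in H2BK131A (vertical axis, log scale), each the mean of 3 libraries, with the line of equality. Red points are the 1875 genes called and at least 2-fold higher, blue points the 1288 called and at least 2-fold lower, and 5 named genes are circled, with histone H2B on the line and scytalone dehydratase and nitrate reductase far from it.

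Nitrate reductase, which reduces nitrate to nitrite, was nearly silent in WT and abundant in the mutant. Its gene PDE_00369 was at 0.69, 1.46 and 0.61 FPKM in WT and at 897, 905 and 1036 in H2BK131A, a log2 difference of 8.97 ± 0.27 (SE, n = 3 and 3 libraries, limma adjusted p = 4.94e-10). The next locus number, PDE_00370, is that of nitrite reductase, which carries the reduction on to ammonium. It was at 2.94, 9.18 and 3.08 FPKM in WT and at 1877, 2049 and 2313 in H2BK131A (8.57 ± 0.36, adjusted p = 3.42e-09). PDE_00371, described as a nitrate/nitrite transporter of the NNP family, followed at 5.35 to 6.71 FPKM in WT and 723 to 853 in H2BK131A (6.83 ± 0.19, adjusted p = 3.95e-10). No library of one strain came near those of the other for these 3 genes, which have consecutive locus numbers. Of the 22 genes of nitrogen assimilation 16 were higher (72.7%) and 5 lower (22.7%), with a median log2 difference of 2.39 beside 0.13 over all genes. Glutamate dehydrogenases moved in both directions. PDE_06117, the NADP+ form, which fixes ammonium into glutamate, was at 32.2, 7.49 and 68.4 FPKM in WT and at 1039, 981 and 1144 in the mutant (5.29 ± 0.58, adjusted p = 6.32e-06), a gene chosen after its values were seen. PDE_06171, described as a glutamate dehydrogenase without a stated cofactor, fell from 515, 773 and 528 FPKM to 52.6, 45.8 and 53.9 (-3.53 ± 0.21, adjusted p = 3.9e-08). The urease accessory protein PDE_07740 also fell (-2.65 ± 0.24). The summed FPKM of the list was 1506 to 1732 in WT libraries and 7987 to 8908 in H2BK131A.

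A second group of genes that rose from near 0 lies in 7 consecutive locus numbers, PDE_01477 to PDE_01483, all called higher by at least 2-fold. Oleate hydratase, PDE_01480, adds water to the double bond of oleic acid. Its transcript was at 1.64, 4.46 and 1.41 FPKM in WT and at 1452, 1527 and 1443 in H2BK131A (8.82 ± 0.44, adjusted p = 1.17e-08). PDE_01482 is described as L-lactate dehydrogenase, which interconverts lactate and pyruvate, and was at 0.29, 1.24 and 0.93 FPKM in WT and 538, 694 and 591 in the mutant (8.41 ± 0.35, adjusted p = 3.42e-09). Pyruvate, water dikinase, PDE_01481, which makes phosphoenolpyruvate from pyruvate, has the locus number between theirs. It was at 1.30 to 2.67 FPKM in WT and 300.0 to 315 in the mutant (6.84 ± 0.18). The undescribed locus PDE_01479 was the highest of the group, at 5.05, 18.4 and 6.98 FPKM in WT and 5296, 5292 and 4871 in the mutant (9.04 ± 0.43). WT 2 had the highest WT value for 4 of the genes just described (PDE_01479 to PDE_01482), yet it stayed far below every mutant library. The locus PDE_01477 was listed at 0 in all 3 WT libraries and was at 3.91, 5.90 and 5.20 FPKM in H2BK131A, so that no fold is given for it. The median log2 difference over the 7 loci was 7.99, and each of the 7 was also called higher in H2BK131A than in H2BK123A and in DlaeA.

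Among the remaining genes with the largest rises PDE_03140, a sugar:H+ symporter by its description (MFS, the major facilitator superfamily), went from 2.00, 4.32 and 1.73 FPKM to 906, 791 and 805 (7.89 ± 0.25, adjusted p = 5.99e-10). The largest rise of all belonged to PDE_04041, which has no description, at 1.36, 2.13 and 0.98 FPKM in WT and 1361, 2061 and 1509 in the mutant (9.37 ± 0.34). The other 5 of the 12 largest rises, PDE_04886, PDE_06443, PDE_06916, PDE_07430 and PDE_01478, have no description either, with log2 differences of 7.99 to 8.23. All 12 were called higher in H2BK131A than in each of the other 3 strains.

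**Figure D2:**
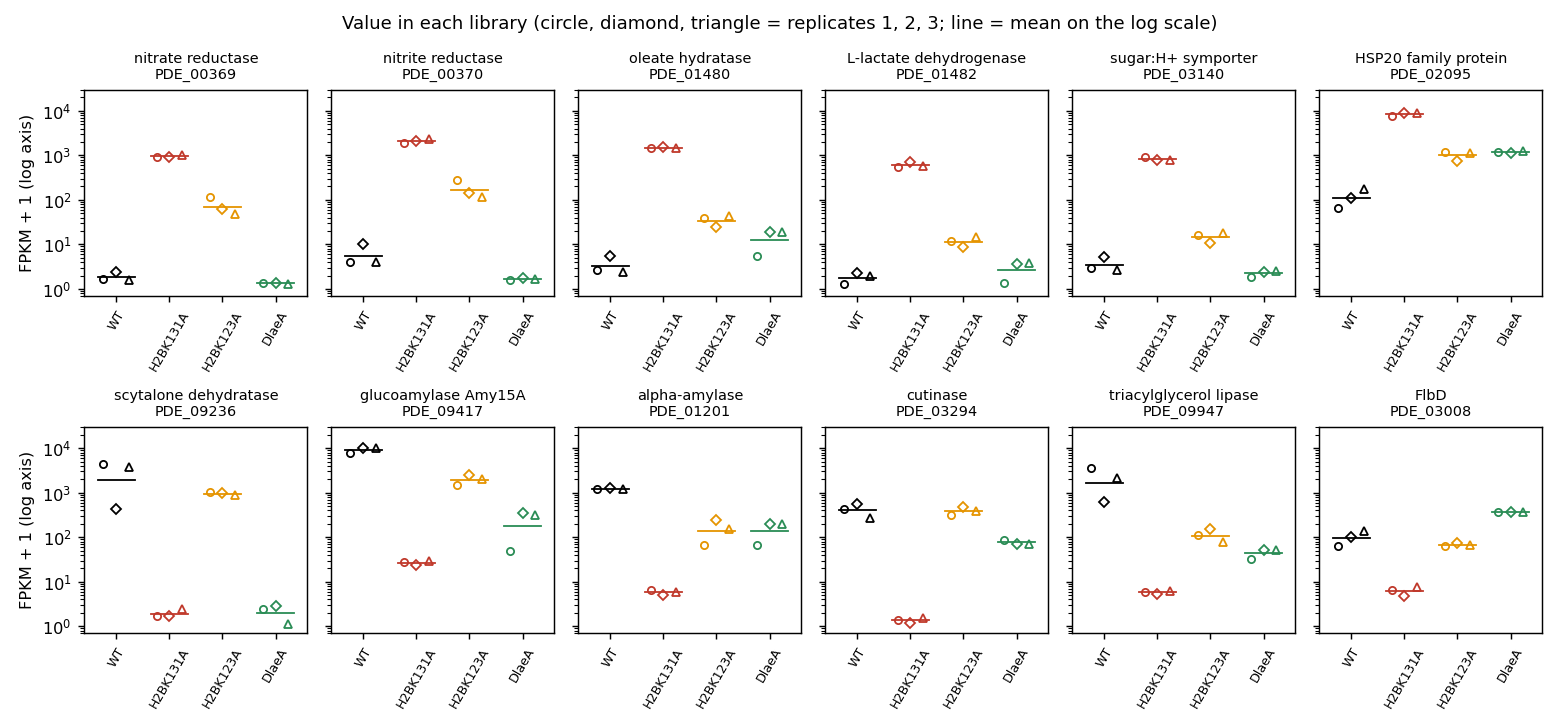
FPKM + 1 (log axis) of 12 genes in every library of the 4 strains, with replicates 1, 2 and 3 as circle, diamond and triangle and a line at the mean on the log scale. In the upper row the 3 H2BK131A libraries lie above every library of the other strains, and in the lower row they lie below all of them except for scytalone dehydratase, where DlaeA is as low.

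The largest fall was that of scytalone dehydratase, PDE_09236, by its name an enzyme of dihydroxynaphthalene melanin synthesis, the pathway of a dark pigment of fungal spores and walls. It was at 4451, 439.7 and 3834 FPKM in WT and at 0.71, 0.71 and 1.39 in H2BK131A, a log2 difference of -10.00 ± 0.69 (SE, limma adjusted p = 1.39e-07) and of -11.08 without WT 2 (adjusted p = 1.01e-09). WT 2 was far below WT 1 and WT 3 and still far above all mutant libraries. The gene is 1 of 21 consecutive locus numbers, PDE_09226 to PDE_09246, that were all called lower by at least 2-fold, the longest of 24 such stretches. All 21 were also called lower without WT 2. The median log2 difference over the stretch was -7.53, with a range of -10.00 to -1.26.

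Several members of the stretch are described as enzymes of polyketide pathways. Tetrahydroxynaphthalene reductase, PDE_09239, by its name also an enzyme of melanin synthesis, was at 2654, 376 and 2696 FPKM in WT and 3.17, 2.73 and 5.04 in the mutant (-8.26 ± 0.59). PDE_09237, named as a monodictyphenone polyketide synthase, the kind of enzyme that builds a polyketide chain, was at 761, 91.5 and 795 FPKM in WT and at 0.79 to 1.09 in the mutant (-7.62 ± 0.62). The aflatoxin efflux pump PDE_09228, a transporter by its description, fell from 2027, 794 and 1993 FPKM to 2.74 to 3.67 (-8.44 ± 0.36). Other descriptions in the stretch are norsolorinic acid ketoreductase (PDE_09231, -6.38), sterol 14-demethylase (PDE_09230, -4.36), salicylate hydroxylase (PDE_09229, -7.53) and an O-methyltransferase (PDE_09244, -6.01), and 11 loci have no description. The descriptions refer to more than 1 kind of product, and which product the stretch makes, melanin or another, was not tested. Outside the stretch, the undescribed PDE_06813, with a gene ontology entry for hydrolase activity, had the next largest fall after scytalone dehydratase, from 3717, 2821 and 3983 FPKM to 5.44, 2.76 and 3.19 (-9.54 ± 0.26, adjusted p = 3.62e-10). At the ends the differences were smaller, with -1.90 for PDE_09226, described as an endo-beta-1,4-glucanase, and -1.26 for PDE_09246. The stretch PDE_09226 to PDE_09246 was low in DlaeA too. The median log2 difference from the shared WT libraries was -8.51 in DlaeA and -1.02 in H2BK123A. The direct difference between H2BK131A and H2BK123A had a median of -6.64, and that between H2BK131A and DlaeA a median of 1.20, with H2BK131A called lower than both of them only for PDE_09226.

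**Figure D3:**
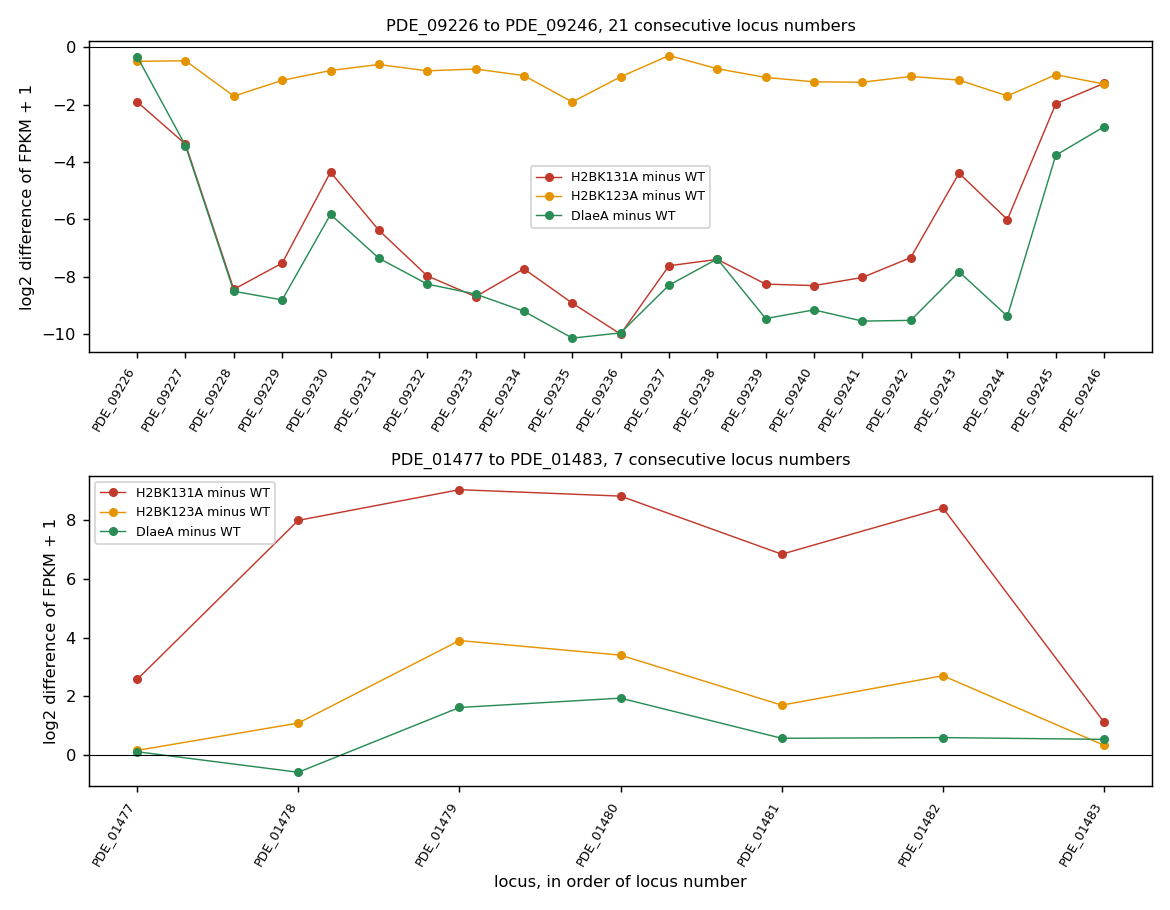
Log2 difference of FPKM + 1 from WT (vertical axis) for each locus of 2 stretches in order of locus number (horizontal axis), in H2BK131A (red), H2BK123A (orange) and DlaeA (green), with lines that only join neighbouring loci. In PDE_09226 to PDE_09246 the values of H2BK131A and DlaeA are far below those of H2BK123A except at both ends, and in PDE_01477 to PDE_01483 those of H2BK131A are above both other mutants.

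The pigment list as a whole was not lower throughout. Of its 13 tested members 7 were lower (53.8%) and 5 higher (38.5%). Among those that rose were PDE_04614, a tyrosinase, which oxidises phenols to pigment precursors (from 0.75 to 2.25 FPKM in WT to 20.5 to 24.98 in the mutant, 3.24 ± 0.21), and PDE_07612, an iron transport multicopper oxidase by its description (1.71 ± 0.11). Backbone enzymes of secondary metabolism were split, with 6 of 15 higher and 6 lower (40.0% each), 5 higher and 7 lower with median ratio scaling, and 6 and 8 with quantile scaling. The naphtho-gamma-pyrone polyketide synthase PDE_09491 rose from 0.84, 2.73 and 4.44 FPKM to 109, 153 and 128 (5.28 ± 0.31, adjusted p = 3.88e-08), and the zearalenone synthase PDE_04441 from 0.30 to 0.53 FPKM to 14.9 to 20.1 (3.69 ± 0.13). PDE_01717, described as trichodiene synthase, a terpene cyclase, fell from 34.9, 90.6 and 112 FPKM to 0.78, 1.8 and 0.64 (-5.16 ± 0.39). Of 9 tested genes matched by name to the cytochrome P450 list 5 were higher and 3 lower. PDE_01689 (4.78 ± 0.18) and PDE_01426 (2.66 ± 0.28) were among the former and PDE_01418 (-3.03 ± 0.22) and PDE_00811 (-2.79 ± 0.40) among the latter. Enzymes of this family described under other names would not be counted, so the balance holds for the list alone.

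Regulators of conidiation, the formation of asexual spores, were low in the mutant. FlbD, PDE_03008, a Myb-like protein that acts upstream of BrlA in Aspergillus nidulans, was at 63.8, 98.2 and 138 FPKM in WT and at 5.48, 3.89 and 6.49 in H2BK131A (-3.96 ± 0.23, adjusted p = 3.73e-08). BrlA, PDE_00087, the zinc finger protein that starts conidiophore development there, was at 5.67, 19.7 and 28.9 FPKM in WT and at 1.90, 2.06 and 2.06 in the mutant (-2.42 ± 0.42, adjusted p = 0.000293). The 2 remaining genes of this list, PDE_01188 and PDE_00079, were not called. PDE_01188, described as the spore wall protein DIT1, scattered within both strains, at 376, 5.93 and 164 FPKM in WT and 92.7, 537 and 420 in H2BK131A (1.87 ± 1.21, adjusted p = 0.186, and called higher without WT 1, 3.03, adjusted p = 0.0353). PDE_00079, a second gene described as BrlA, stayed under 1 FPKM in both (0.05 ± 0.23, adjusted p = 0.85). The summed FPKM of the 4 genes was 124 to 446 in WT and 100 to 543 in the mutant. Their part in the fall of the stretch with scytalone dehydratase was not tested. In RNA from whole mycelium fewer cells of a type and less RNA per cell cannot be told apart.

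Among the lists of secreted hydrolases, the starch-degrading enzymes (amylases) had the lowest median log2 difference and the largest share of lower members. Single genes of another list, a cutinase and a lipase given below, fell by amounts similar to that of the glucoamylase named next. The glucoamylase Amy15A, PDE_09417, which releases glucose from the ends of starch chains, was among the most abundant transcripts of WT at 7746, 10192 and 10117 FPKM and was at 26.8, 22.6 and 27.8 in H2BK131A (-8.44 ± 0.57, limma adjusted p = 1.11e-07). PDE_01201, an alpha-amylase, which cuts starch internally, was at 1185, 1254 and 1196 FPKM in WT and 5.46, 4.07 and 4.90 in the mutant (-7.71 ± 0.46, adjusted p = 3.9e-08). The 3 WT libraries, WT 2 included, lay close together for both genes. Of 13 amylase genes 9 were lower (69.2%) and 2 higher (15.4%), with a median of -1.64, and 8 were lower without WT 2. PDE_04151, an alpha-glucosidase (-5.76 ± 0.28), and PDE_05527, a further glucoamylase (-5.10 ± 0.34), were also lower, both chosen after their values were seen. The alpha-glucosidase PDE_03235 rose from 73.8 to 81.8 FPKM to 300 to 323 (1.99 ± 0.10), and the alpha-amylase PDE_04683 by 0.56 ± 0.11. Summed over the list the FPKM was 10746 to 14706 in WT and 791 to 925 in H2BK131A, and the 9 genes that were lower than in WT were lower than in H2BK123A and DlaeA as well.

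Cellulases changed in both directions. Of 31 genes 11 were higher (35.5%) and 16 lower (51.6%), or 13 lower without WT 2, and the median was -0.36. Beta-glucosidase I, PDE_02736, which splits cellobiose, was at 177, 213 and 154 FPKM in WT and 14.0, 8.89 and 9.63 in the mutant (-3.96 ± 0.20, adjusted p = 1.41e-08). The cellobiohydrolase PDE_07945, which releases cellobiose from chain ends, fell from 38.2, 17.1 and 19.8 FPKM to 1.00, 0.77 and 0.72 (-3.75 ± 0.27). In the opposite direction the endo-beta-1,4-glucanase PDE_03711 rose from 49.0, 41.9 and 50.7 FPKM to 355, 377 and 419 (3.0 ± 0.13, adjusted p = 5.16e-09). The exo-cellobiohydrolase PDE_05445 rose from 0.29 to 0.58 FPKM to 4.60 to 5.21 (2.01 ± 0.15). The summed FPKM of the list, 675 to 846 in WT and 808 to 830 in the mutant, overlapped between the strains although 27 members were called.

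Of 95 tested hemicellulase and pectinase genes 49 were lower (51.6%) and 23 higher (24.2%), with a median of -0.59. The xylanase PDE_09478, which cuts the xylan backbone, stood out among those that rose, from 2.83, 3.19 and 2.15 FPKM to 263, 254 and 231 (6.08 ± 0.17, adjusted p = 4.13e-10). The exo-arabinanase PDE_04488 rose from 1.68 to 2.10 FPKM to 56.1 to 71.5 (4.53 ± 0.15). Another xylanase, PDE_00752, fell from 19.5 to 32.9 FPKM to 0.88 to 1.58 (-3.63 ± 0.24). The arabinofuranosidase PDE_07585 fell to 15.8, 11.2 and 11.3 FPKM from WT values of 1256, 74.9 and 459 (-4.69 ± 0.73), so that WT 2 lay closest to the mutant. Of 13 lipases and cutinases 6 were lower (46.2%) and 1 higher (7.69%). The cutinase PDE_03294, which hydrolyses the plant polyester cutin, dropped from 432, 555 and 272 FPKM to 0.39, 0.20 and 0.51 (-8.21 ± 0.23, adjusted p = 4.13e-10). The triacylglycerol lipase PDE_09947 was at 3507, 631 and 2180.1 FPKM in WT, with WT 2 lowest, and at 4.90, 4.40 and 5.16 in the mutant (-8.18 ± 0.49, and -8.89 without WT 2). The gene with the rise, PDE_08957, also described as a triacylglycerol lipase, was under 2 FPKM in both strains (0.60 ± 0.12) and was not called with quantile scaling (0.26, adjusted p = 0.0912).

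Transporters of the MFS, which carry sugars, drugs and other small molecules across membranes, were lower more often than higher. Of 116 genes 62 were lower (53.4%) and 43 higher (37.1%), with 54 and 30 past 2-fold, and the median was -0.82. Their summed FPKM was 27460 to 30603 in WT and 7032 to 8400 in the mutant. The general alpha-glucoside transporter PDE_04150 fell from 547, 749 and 569 FPKM to 14.4, 6.83 and 8.85 (-5.86 ± 0.29, adjusted p = 1.11e-08), and the sugar:H+ symporter PDE_03313 from 491 to 617 FPKM to 10.2 to 21.3 (-5.29 ± 0.33). Both carry or may carry sugars by their descriptions, as do the CdtD cellodextrin transporter PDE_00753 (-3.76 ± 0.19) and PDE_09994, a maltose permease (-4.57 ± 0.23), which were chosen after their values were seen. Genes for amino acid and peptide uptake had 21 of 43 lower (48.8%) and 11 higher (25.6%), with the oligopeptide transporter PDE_01916 (-3.38 ± 0.27) and the amino acid transporter PDE_06018 (-3.02 ± 0.23) among those that fell. The amino acid transporters PDE_04259 (3.33 ± 0.14) and PDE_09673 (2.39 ± 0.14) rose.

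Peptidases were near the background, with 32 of 81 higher (39.5%) and 24 lower (29.6%), and 27 and 29 with median ratio scaling. The 2 members with the largest rises, PDE_00424 (from 48.3 to 79.3 FPKM to 711 to 942, 3.72 ± 0.20) and PDE_00624 (3.13 ± 0.17), are described as ATP-binding subunits of the Clp protease, a family that unfolds proteins and in part also rescues aggregated ones. Aspergillopepsin I, a secreted acid protease, fell for both genes so described, PDE_07344 from 2294 to 2386 FPKM to 298 to 414 (-2.72 ± 0.22) and PDE_08305 (-2.15 ± 0.26). Of 103 cell wall genes 46 were higher (44.7%) and 24 lower (23.3%). The chitin glucanosyltransferase PDE_07531, which by its name links chitin to glucan, rose from 0.48, 1.82 and 0.83 FPKM to 269, 343 and 267 (7.21 ± 0.35, adjusted p = 8.76e-09). The alpha-1,3-mannosyltransferase PDE_08928 rose from 0.33 to 0.70 FPKM to 23.7 to 26.6 (4.14 ± 0.18). Chitinases, which break chitin down, were among those that fell, with PDE_01168 going from 223, 45.2 and 58.2 FPKM to 0.64 to 1.10 (-5.56 ± 0.43) and PDE_08122 from 867, 271 and 544 FPKM to 11.3 to 13.6 (-5.25 ± 0.50). PDE_09832, which has no description but a gene ontology entry as a structural molecule of the cell wall, fell from 6109, 8668 and 10523 FPKM to 70.0, 81.5 and 113 (-6.56 ± 0.26, adjusted p = 2.46e-09).

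Genes of protein synthesis were mostly higher than in WT, by different amounts. Of 68 cytosolic ribosomal proteins 65 were higher (95.6%) and 1 lower (1.47%), with a median log2 difference of 2.38. Their summed FPKM was 4754 to 10685 in WT and 35629 to 40114 in H2BK131A. Of the 65, 64 were called higher than in each of the other 3 strains. The subunit S26e, PDE_02693, was at 40.8, 111 and 100 FPKM in WT and at 532, 547 and 544 in the mutant (2.80 ± 0.28, adjusted p = 3.17e-06). L10Ae, PDE_00779, was at 16.4, 13.0 and 12 FPKM in WT and at 79.3, 170 and 121 in the mutant (3.01 ± 0.22). The member that fell, PDE_00150, described as L3e, overlapped between the strains, at 37.4 to 53.5 FPKM in WT and 22.3 to 37.7 in the mutant (-0.70 ± 0.19, adjusted p = 0.00695). Ribosome biogenesis factors had 72 of 97 higher (74.2%) and 8 lower (8.25%), but on a smaller scale, with a median of 0.73 and 24 at least 2-fold higher. Their summed FPKM overlapped, at 3096 to 3261 in WT and 3065 to 3289 in H2BK131A. Against H2BK123A 68 were higher and 9 lower, where 32.9% and 35.8% of all genes were. Against DlaeA 29 were higher and 21 lower, where 36.2% and 41.3% of all genes were. Among the biogenesis factors PDE_01461, a protein of the U3 small nucleolar RNA complex, rose from 6.82 to 9.70 FPKM to 76.9 to 82.9 (3.09 ± 0.14), while SSF1/2, PDE_06094, fell from 1245 to 1411 FPKM to 265 to 289 (-2.25 ± 0.15). Of 2 genes described as NET1-associated nuclear protein 1, PDE_09406 rose (2.89 ± 0.15) and PDE_05818 fell (-2.47 ± 0.14). Of 43 aminoacyl-tRNA synthetases, which charge tRNAs, 35 were higher (81.4%) and 4 lower (9.30%), median 1.25. Their summed FPKM was 2701 to 3903 in WT, 4038 to 4283 in H2BK131A, 4589 to 4897 in H2BK123A and 4418 to 4526 in DlaeA. The sums put H2BK131A below both other mutants, but most single synthetases went the other way. In H2BK131A 33 were higher and 5 lower than in H2BK123A, and 27 higher and 7 lower than in DlaeA. The shares of all genes are those given above for the biogenesis factors. The isoleucyl and lysyl enzymes had the widest rises, PDE_04448 (from 0.39 to 1.18 FPKM to 29.8 to 47.0, 4.48 ± 0.19) and PDE_08887 (2.53 ± 0.19), and the aspartyl-tRNA synthetase PDE_04829 fell (-3.55 ± 0.28). The proteasome, which degrades proteins, had 38 of 49 subunits higher (77.6%) and 5 lower (10.2%), at a median of 0.48, and 20 higher and 7 lower with quantile scaling.

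**Figure D4:**
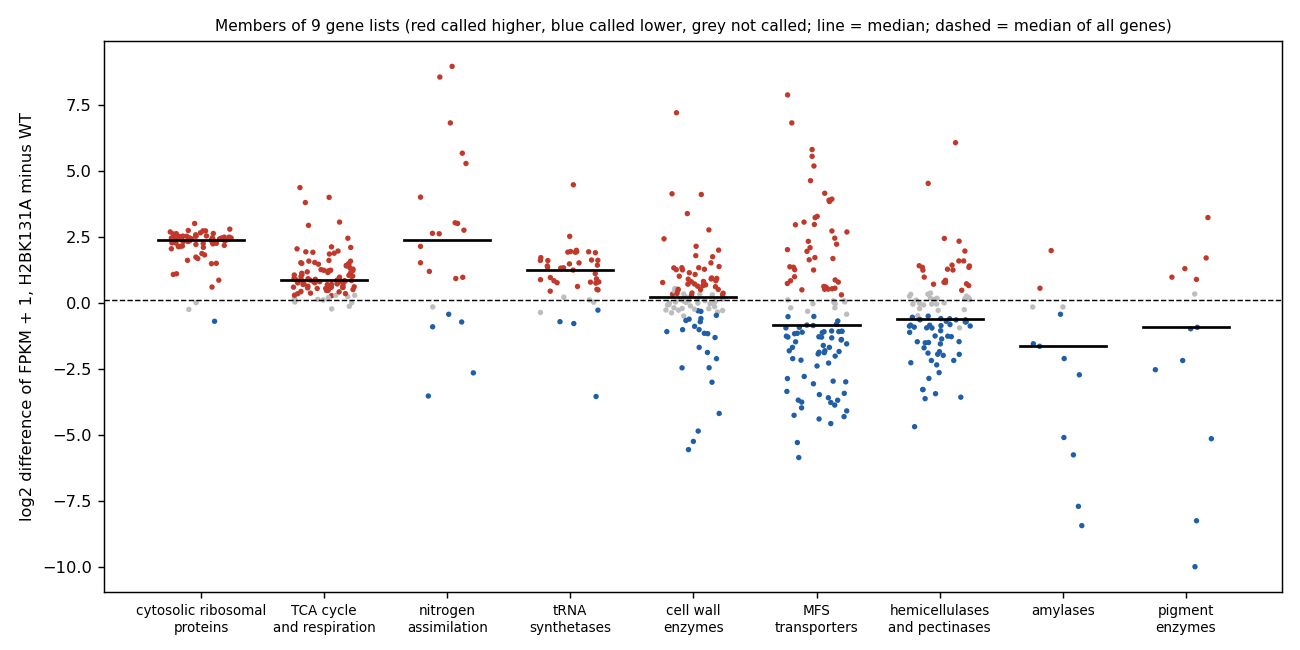
Log2 difference of FPKM + 1 between H2BK131A and WT (vertical axis) for every tested member of 9 gene lists (horizontal axis), red where called higher, blue where called lower and grey where not called, with a line at each median and a dashed line at the median of all genes, 0.13. The cytosolic ribosomal proteins lie close together around 2.38, whereas MFS transporters and amylases spread widely.

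Mitochondrial energy genes had no called fall. Of 104 genes of the TCA cycle and the respiratory chain 90 were higher (86.5%) and 0 lower, with a median of 0.86. With median ratio or quantile scaling 1 was lower. Subunit c of the F-type ATPase, PDE_07836, the rotor of ATP synthase, was at 134, 305 and 500.3 FPKM in WT and at 5400, 5798 and 5909 in the mutant (4.37 ± 0.36, adjusted p = 5.77e-07). The cytochrome c oxidase assembly protein PDE_08885 rose from 21.8, 26.0 and 21.4 FPKM to 335, 405 and 416 (4.01 ± 0.17). The alternative oxidase PDE_08849, which bypasses the late respiratory complexes, was at 16.2, 4.91 and 38.6 FPKM in WT and 166, 267 and 246 in the mutant (3.81 ± 0.56), a gene chosen after its values were seen. Glycolysis and the pentose phosphate pathway had 27 of 41 genes higher (65.9%) and 5 lower (12.2%), median 1.03. Pyruvate decarboxylase, the first step from pyruvate to ethanol, rose for PDE_04873, from 28.5, 53.4 and 34.5 FPKM to 1653, 1967 and 1956 (5.59 ± 0.23, adjusted p = 3.07e-09), and fell for PDE_04911, from 88.0 to 142 FPKM to 18.0 to 25.2 (-2.30 ± 0.18). A 6-phosphogluconate dehydrogenase of the pentose phosphate pathway, PDE_08816, was at 0.28 FPKM in each WT library and at 41.9, 70.8 and 44.0 in the mutant (5.34 ± 0.19), and the ribose 5-phosphate isomerase PDE_03075 fell (-2.90 ± 0.13).

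Amino acid biosynthesis followed, with 50 of 83 genes higher (60.2%) and 10 lower (12.05%) at a median of 0.88. The summed FPKM of the list overlapped between the strains, at 3625 to 10258 in WT and 9501 to 10906 in H2BK131A. Genes described as tryptophan synthase rose, PDE_07951 from 15.2 to 20.9 FPKM to 514 to 698 (4.96 ± 0.19, adjusted p = 1.82e-09) and PDE_02771 from 0.15 to 0.20 FPKM to 15.3 to 25.03 (4.08 ± 0.32), whereas anthranilate phosphoribosyltransferase, PDE_09404, of the same pathway fell (-2.15 ± 0.14). The cystathionine gamma-synthase PDE_04106 fell as well (-2.19 ± 0.43). Without WT 2 the number of lower members was 16 in place of 10, and the median was 0.60 in place of 0.88. PDE_01215, a branched-chain amino acid aminotransferase at 3742, 230 and 2658 FPKM in WT and 456 to 495 in the mutant, was not called with WT 2 (-1.48 ± 0.78, adjusted p = 0.11) and was called lower without it (-2.74, adjusted p = 6.78e-06). PDE_01213, described as an enzyme of arginine synthesis, behaved alike, at 808, 44.8 and 461 FPKM in WT and 105 to 110 in the mutant (-1.25 ± 0.78, adjusted p = 0.17, and -2.50 without WT 2, adjusted p = 1.92e-05). These 2 genes were chosen after their values were seen.

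Lipid and stress genes were mixed. Fatty acid oxidation and peroxisome genes had 20 of 64 higher (31.2%) and 18 lower (28.1%), and 16 and 25 with median ratio scaling. Against both other mutants the balance was downward, with 10 higher and 41 lower than H2BK123A and 10 higher and 42 lower than DlaeA, where 32.9% and 35.8% of all genes were higher and lower than in H2BK123A and 36.2% and 41.3% than in DlaeA. A long-chain acyl-CoA synthetase, PDE_00022, rose from 0.06 FPKM or 0 in WT to 13.3 to 15.8 (3.96 ± 0.13), isocitrate lyase of the glyoxylate cycle, PDE_08297, rose by 1.83 ± 0.21, and the acyl-CoA dehydrogenase PDE_08787 fell (-3.69 ± 0.19). Of 30 sterol genes 19 were higher (63.3%) and 6 lower (20.0%), median 0.72, with squalene monooxygenase, PDE_09649, rising from 14.5 to 24.1 FPKM to 164 to 189 (3.24 ± 0.16) and the sterol 24-C-methyltransferase PDE_07895 from 11.1 to 14.9 FPKM to 104 to 144 (3.08 ± 0.13). The farnesyl diphosphate synthase PDE_01718, with the locus number after that of the trichodiene synthase named above, fell (-4.48 ± 0.32). Oxidative stress enzymes had 31 of 55 higher (56.4%) and 14 lower (25.5%), median 0.89. Thioredoxin 1, PDE_01808, which reduces disulphides, rose from 61.8, 111 and 77.7 FPKM to 2402, 2577 and 2126 (4.85 ± 0.19, adjusted p = 2.06e-09), and the glutathione S-transferase PDE_01194 from 178 to 294 FPKM to 3169 to 5876 (4.46 ± 0.37), while glutathione synthase, PDE_07454, fell (-2.40 ± 0.14).

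Heat shock proteins and chaperones had 24 of 36 members higher (66.7%) and 3 lower (8.33%), median 0.59, and their summed FPKM was 3968 to 6843 in WT and 22857 to 27208 in the mutant. A pair of HSP20 small heat shock proteins, which hold unfolding proteins in solution, showed the widest rises of the list. PDE_02095 was at 66.0, 108 and 175 FPKM in WT and at 7719, 9158 and 8734 in the mutant (6.29 ± 0.30, adjusted p = 7.05e-09). PDE_00175 was at 35.9, 81.6 and 162 FPKM in WT and at 5067, 5412 and 4717 in the mutant (6.0 ± 0.39, adjusted p = 7.77e-08). In H2BK123A and DlaeA these 2 genes had means of 1021 to 1233 FPKM, and H2BK131A was above both strains for both genes (log2 differences 2.04 to 3.09). The falls were small, at most -0.77 ± 0.23 for PDE_07443, a DnaJ homolog whose call was lost in a fit of both strains by themselves (adjusted p = 0.0537).

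The histone genes and the enzymes that act on histones changed by at least 2-fold in few cases. Of 78 members 22 were higher (28.2%) and 17 lower (21.8%), with 3 and 4 past 2-fold, and the median was 0.02. With median ratio scaling 13 were higher and 33 lower, where 3326 and 3542 of all 9431 genes were. The main H2A gene PDE_01490 (-0.08 ± 0.13, adjusted p = 0.596), the H4 gene PDE_00232 (-0.13 ± 0.14) and the H3 gene PDE_00233 (-0.17 ± 0.16) overlapped between the strains, although the last 2 were called lower with median ratio scaling. Called among histones were H4.2, PDE_08392, which rose from 120.0 to 137 FPKM to 225 to 268 (0.92 ± 0.11, adjusted p = 1.11e-05), a second H2A, PDE_09954 (0.45 ± 0.11), the centromeric H3-like protein PDE_01105 (0.51 ± 0.10), and H1, PDE_01572, which fell (-0.56 ± 0.10). Of the machinery for the ubiquitin mark described above, the ligase BRE1, PDE_03581, was at 33.4 to 38.7 FPKM in WT and 34.3 to 39.0 in the mutant (-0.02 ± 0.12, adjusted p = 0.879). The E2 A ubiquitin-conjugating enzyme PDE_08059, of the Rad6 family by its name, was at 78.3, 109 and 80.3 FPKM in WT and 111 to 123 in the mutant (0.38 ± 0.13, adjusted p = 0.0198), a call that was lost with both scalings (0.21 and 0.14). SETD1, PDE_02489, the methyltransferase of COMPASS, was at 17.2 to 20.2 and 17.4 to 18.1 FPKM (-0.04 ± 0.09, adjusted p = 0.709, and called lower with median ratio scaling, -0.21). These 3 genes were chosen after their values were seen. The 2 widest falls of the list were those of PDE_09099, described as the COMPASS component SPP1 (from 44.2 to 67.5 FPKM to 6.90 to 8.82, -2.64 ± 0.16), and of the remodelling complex subunit PDE_04912 (-1.71 ± 0.12), and its 2 widest rises those of PDE_00041, a deacetylase complex subunit SAP18 (1.20 ± 0.15), and of the SWI/SNF-related PDE_08324 (1.11 ± 0.09).

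Further lists cover replication, splicing, secretion, autophagy and protein kinases. DNA replication and cell cycle genes had 23 of 94 higher (24.5%) and 34 lower (36.2%), with origin recognition complex subunit 2, PDE_07756, rising (1.99 ± 0.12) and the cyclin PLC1, PDE_02889, falling (-2.72 ± 0.12). Splicing genes had 25 of 63 higher (39.7%) and 9 lower (14.3%), and 14 and 21 with median ratio scaling, with the fall of splicing factor 3B subunit 1, PDE_04765, as the widest change, from 82.6 to 87.6 FPKM to 6.26 to 9.02 (-3.32 ± 0.14). The secretory pathway had 30 of 76 higher (39.5%) and 17 lower (22.4%), and 24 and 26 with median ratio scaling. Among the members that fell were SEC31, PDE_03379 (-1.80 ± 0.19), and SEC16, PDE_07258 (-3.40 ± 0.37), which both act where vesicles leave the endoplasmic reticulum. They were named for the size of their falls and do not stand for the other proteins of that step. Of 11 autophagy genes 6 were lower (54.5%) and 2 higher (18.2%), with no change above 2-fold but that of ATG4, PDE_01488 (-1.29 ± 0.10). Protein kinases had 18 of 73 higher (24.7%) and 24 lower (32.9%) than WT, but 6 higher and 43 lower than H2BK123A and 9 higher and 48 lower than DlaeA. Over all genes 32.9% were higher and 35.8% lower than in H2BK123A, and 36.2% and 41.3% than in DlaeA. PDE_06305, described as serine/threonine kinase 16, rose from 16.6, 25.4 and 16.9 FPKM to 271, 181 and 199 (3.41 ± 0.18), and PDE_05231 fell (-1.95 ± 0.16).

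**Figure D5:**
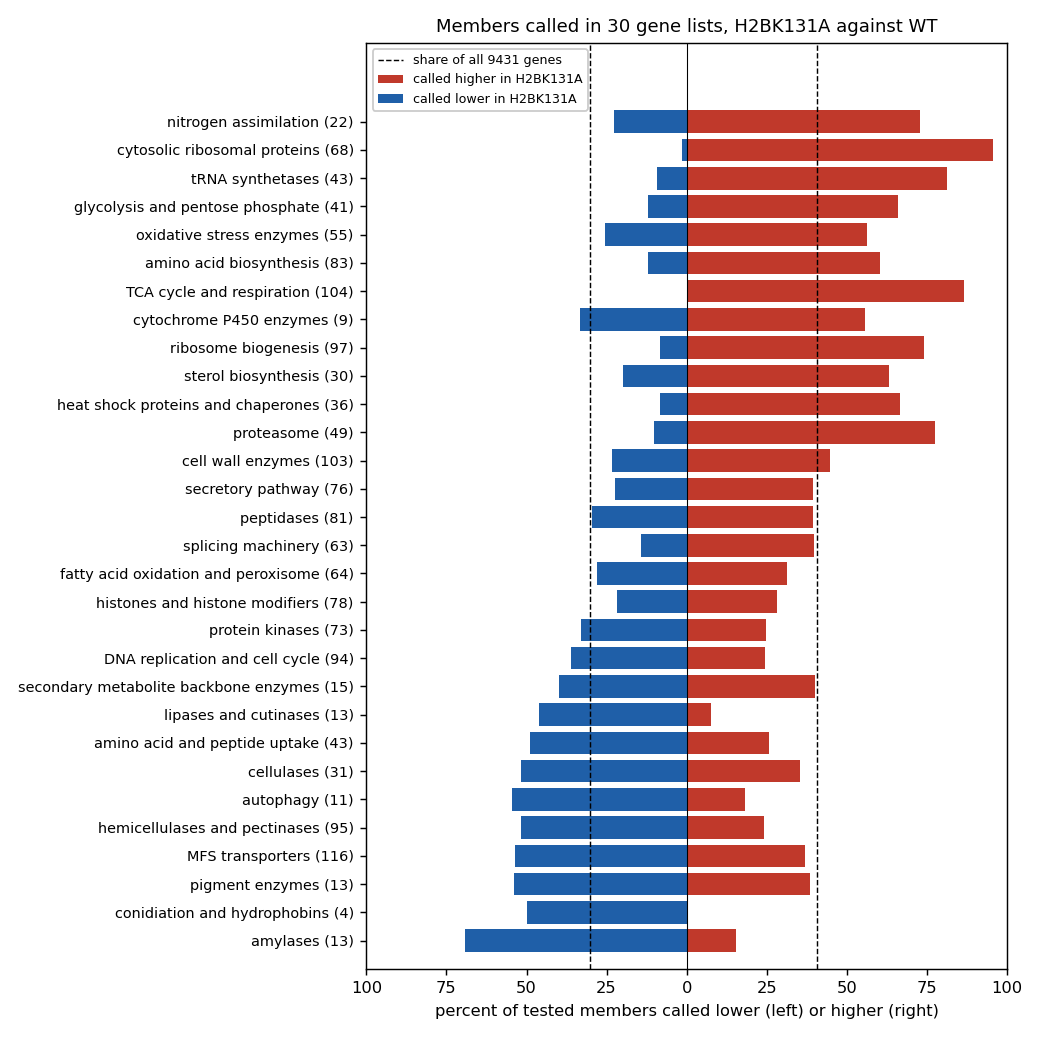
Percent of the tested members of 30 gene lists (vertical axis, number tested in brackets, ordered by median log2 difference) called higher (red, right) or lower (blue, left) in H2BK131A than in WT. The dashed lines mark the shares of all 9431 genes, 40.6% higher and 30.2% lower. Cytosolic ribosomal proteins and the TCA cycle and respiration reach furthest to the right and amylases furthest to the left.

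Beside the stretch with scytalone dehydratase and the oleate hydratase locus there were 22 further runs of 5 or more consecutive locus numbers. All loci of a run were called in the same direction by at least 2-fold. The 24 runs held 155 loci, 13 runs being higher and 11 lower. Over all genes 19.9% were called at least 2-fold higher and 13.7% at least 2-fold lower. How many runs such shares would give by themselves was not tested, and a run is not evidence of shared control. PDE_06091 to PDE_06098 held 8 loci that fell, with a median of -2.11. Among them are a ferric-chelate reductase, PDE_06091 (from 210 to 328 FPKM to 37.2 to 49.5, -2.56 ± 0.23), and a siderophore-iron transporter, PDE_06096 (from 3221, 4474 and 3488 FPKM to 1094, 802 and 866, -2.01 ± 0.20), which both serve iron uptake. PDE_00794 to PDE_00800 held 7 loci that fell, median -2.92, from WT levels that differed between libraries, such as 12.8, 23.4 and 76.1 FPKM for verruculogen synthase, PDE_00794, against 1.23 to 1.73 in the mutant. In PDE_02113 to PDE_02119, 7 loci that fell with a median of -3.29, the WT values scattered too, with PDE_02117 at 359, 9.66 and 103 FPKM and at 0.54 to 1.53 in H2BK131A. The 7 loci PDE_01365 to PDE_01371 rose more moderately, by a median of 1.48. They include sterol 24-C-methyltransferase, PDE_01368 (from 29.9, 81.4 and 54.7 FPKM to 312, 317 and 312, 2.59 ± 0.26), the DnaJ homolog PDE_01365 (2.18 ± 0.18) and a splicing factor, PDE_01367 (1.24 ± 0.11), and all 7 were also higher than in H2BK123A and DlaeA.

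The direct comparisons with the other mutants do not use the WT libraries for the difference itself, although these enter the shared estimate of the spread. H2BK131A differed from H2BK123A in 6479 genes (68.7%), 3107 higher and 3372 lower, and from DlaeA in 7308 genes (77.5%), 3416 higher and 3892 lower. Of the 3831 genes higher than in WT, 2711 (70.8%) were also called higher than in H2BK123A, 159 lower and 961 neither, and 2474 (64.6%) were called higher than in DlaeA, 536 lower and 821 neither. Of the 2844 genes lower than in WT, 2304 (81.0%) were called lower than in H2BK123A and 2054 (72.2%) lower than in DlaeA, with 40 and 343 called higher. In all, 2064 genes (21.9%) were higher in H2BK131A than in each of the other 3 strains and 1813 (19.2%) lower, with 905 (9.6%) and 672 (7.13%) past 2-fold each time. Nitrate reductase was among those that were higher. PDE_00369 was at 117, 60.9 and 46.8 FPKM in H2BK123A and 0.30 to 0.35 in DlaeA, which left H2BK131A higher by 3.75 than H2BK123A (adjusted p = 2.58e-07) and by 9.47 than DlaeA (adjusted p = 7.51e-11). Among those that were lower, the glucoamylase Amy15A, PDE_09417, was at 1523, 2476 and 2040.2 FPKM in H2BK123A and 48.0, 341 and 315 in DlaeA (H2BK131A lower by log2 differences of -6.21 and -2.71, adjusted p = 1.79e-06 and 0.000924). D-arabinitol 2-dehydrogenase, PDE_05532, an enzyme of pentitol metabolism, was at 389, 449 and 287 FPKM in WT and 2.12, 2.13 and 2.55 in H2BK131A (-6.83 ± 0.27), and H2BK131A was below H2BK123A by a log2 difference of -7.77 and below DlaeA by one of -8.93.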

How the data were processed

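RNA of mycelia from 4 strains with 3 libraries each was profiled. Per the file headers, the authors deposited an FPKM for each gene in each library. The labels' protocols describe digital gene expression tags (NlaIII and MmeI), for which a per-kilobase unit is unusual, and the sources used here name no aligner, counter, build or gene models. Depth is unknown, since no counts are given. Of 680 low values above the lowest of their gene (140 genes), 69.0% were whole multiples of it within 0.1, and the relative worth of 1 read was 1.00 to 1.02 over the libraries, a measure that cannot show large differences. Intervals from counting error are not given. FPKM sums were 709484 to 764699 per library.

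The test was limma 3.58.1 (R 4.3.3) on log2(FPKM + 1), two-sided, over all 12 libraries with strain as the only term, moderation along the mean level (8 residual degrees of freedom) and Benjamini-Hochberg adjustment over 9431 genes (1 FPKM or more in 3 or more libraries). Calls needed an adjusted p under 0.05. A log2 difference is on the log2(FPKM + 1) scale, which understates the change of low genes, and ± is its SE. On simulated data with 200 changed genes the fit recovered the larger changes, but its share of false calls exceeded the threshold, more so where each strain kept its own spread, since the spread of the more variable WT is pooled with that of the mutants. No label says that replicates are separate cultures, so the p-values cover only the spread among these 12 libraries, possibly technical.

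Names came from the deposited descriptions (5085 genes, 817 more with several KEGG names were left unnamed), and the reference table holds 0 of the identifiers, so no coordinates or sequences are given. The 30 lists are search patterns on these names, trimmed after the names were read. The comparison and the lists were chosen with earlier results of these data known. Genes named are the 12 largest changes per direction (mean FPKM of at least 10 in 1 strain, no overlap, called without WT 2), the 6 largest per direction that differ from all 3 other strains, up to 2 per direction in each list, histones, and members of the 6 longest runs of loci, 181 in all. Another 13, marked in the text, were chosen after their values were seen. The alternatives were 22: filters, pseudocounts, scalings, moderation, weights, the 2 strains alone, the replicate block, and each library left out.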

Additional observations from a re-analysis of the deposited data

How the results depend on the processing

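Under 22 alternatives the number of genes called between H2BK131A and WT ranged from 5796, with a filter at an FPKM of 10, to 7381, with array weights, and from 6161 to 6825 when 1 library was left out. No count over all genes moved by more than 1.5 times. Of the calls 57.4% were higher, and 48.4% with median ratio and 50.6% with quantile scaling. At 2-fold or more these scalings gave 1587 higher and 1567 lower, and 1568 and 1496. No label says that replicate numbers pair the samples, and so few libraries cannot exclude it. Deviations of same-numbered WT and H2BK131A libraries correlated at -0.095, -0.224 and 0.211, and those of unlike-numbered ones at -0.224 to 0.224. The fit with the replicate block called 6567 genes. Of 194 genes named, 185 kept their direction and their side of the threshold under every alternative run, and none reversed. PDE_01213 and PDE_01215 were called lower with array weights as well as without WT 2. Without the WT 1, WT 3 or H2BK131A 1 library, or from the 2 strains alone, the call of PDE_08059 was lost (0.29 to 0.38). Of the counts of list members 1294 stayed within 1.5 times and 26 did not. Beside those given with the lists, cellulases had 7 higher and hemicellulases 10 with the FPKM filter at 10, amino acid uptake 7 higher and histone genes 13 higher from the 2 strains alone. Beyond this the cause of the moves was not tested. Depth is unknown and its limits cannot be given.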
